A study of Homo sapiens with 8 samples.

Results

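The 10 genes described here code for core parts of the Notch pathway: the receptors NOTCH1, NOTCH2 and NOTCH3, the ligands JAG1, JAG2, DLL1 and DLL3, and the target and effector genes HES1, HEY1 and HES6. They were selected by name, as the rows of the gene count table whose Ensembl identifiers map to these symbols. All 10 were found among the 37441 genes of the table, and all 10 were among the 18203 genes whose counts over the 8 libraries added up to 10 or more. NOTCH1 passed that filter only through its 12 and 4 counts in NCI-H1703R.

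RNA-seq libraries came from NCI-H1581 and NCI-H1703, established human non-small cell lung cancer (NSCLC) lines that respond to inhibition of FGF receptors, and from a resistant variant of each. The variants, NCI-H1581R and NCI-H1703R, were selected by culture in rising doses of the FGFR inhibitor CPL304110, from 50 nM up to 2.5 µM for NCI-H1581R and 5 µM for NCI-H1703R, for 4 to 6 months. There were 4 groups with 2 replicate libraries each. Every group was harvested 24 h after fresh medium was given, and the sources used here do not state whether that medium held the inhibitor. NCI-H1581 cells were kept in DMEM/F12 and NCI-H1703 cells in RPMI 1640, so cell line and medium cannot be told apart. Each line is represented by 1 resistant population, and the replicates are repeat cultures of it, so p-values measure the spread between cultures and not between independent selections.

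Notch receptors are read out by contact between cells. A ligand of the Jagged or Delta-like family on a neighbouring cell pulls on the receptor, ADAM proteases and the γ-secretase complex then cut it, and the released intracellular domain joins RBPJ and a Mastermind-like (MAML) coactivator on DNA. The classical targets are transcriptional repressors of the HES and HEY families, together with NRARP, a feedback inhibitor of the intracellular domain. In lung, Notch activity is known for steering airway precursors away from the neuroendocrine fate.

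The promoters of the genes on which the results turn are shown first, as the 250 bases before the transcription start, 5′ to 3′ on the strand of the gene (RefSeq, GRCh38.p14). HES1 (chr3:194135898-194136147, + strand) and JAG1 (chr20:10674000-10674249, − strand) are the members whose change in NCI-H1581R passed the main test, by edgeR at an adjusted p under 0.1. Both were lower. By the same test NRARP (chr9:137302272-137302521, − strand) fell and HEY2 (chr6:125749382-125749631, + strand) rose in both resistant variants. Capitals mark the RBPJ core TGGGAA on either strand, read as TTCCCA on the reverse strand.
HES1: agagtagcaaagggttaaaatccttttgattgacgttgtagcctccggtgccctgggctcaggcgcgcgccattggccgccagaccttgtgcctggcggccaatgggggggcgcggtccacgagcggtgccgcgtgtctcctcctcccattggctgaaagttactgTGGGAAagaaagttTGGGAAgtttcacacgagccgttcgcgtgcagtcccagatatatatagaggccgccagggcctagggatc
JAG1: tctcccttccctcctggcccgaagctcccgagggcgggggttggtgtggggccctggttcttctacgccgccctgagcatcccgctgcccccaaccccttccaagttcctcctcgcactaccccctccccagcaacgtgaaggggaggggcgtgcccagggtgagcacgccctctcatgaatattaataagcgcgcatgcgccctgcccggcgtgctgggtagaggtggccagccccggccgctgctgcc
NRARP: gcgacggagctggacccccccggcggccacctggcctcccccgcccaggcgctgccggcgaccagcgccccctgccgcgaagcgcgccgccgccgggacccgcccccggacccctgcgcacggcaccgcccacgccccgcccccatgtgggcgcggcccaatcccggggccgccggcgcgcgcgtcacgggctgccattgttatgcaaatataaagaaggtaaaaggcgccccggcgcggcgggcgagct
HEY2: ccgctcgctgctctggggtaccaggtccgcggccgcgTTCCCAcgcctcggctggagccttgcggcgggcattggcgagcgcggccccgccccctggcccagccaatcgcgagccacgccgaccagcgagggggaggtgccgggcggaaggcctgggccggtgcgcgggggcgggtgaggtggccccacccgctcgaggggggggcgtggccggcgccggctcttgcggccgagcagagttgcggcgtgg

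On both strands, HES1 held 2 matches to TGGGAA, whose first bases lay 84 and 70 bases before the start, and 1 of them was the longer form GTGGGAA. Of 35116 promoters of the same length, 20.8% held at least 1 TGGGAA, 2.90% held 2 or more and 5.43% held GTGGGAA, which contains TGGGAA. HEY2 held 1 GTGGGAA, 213 bases before the start. Neither string occurred in the windows of JAG1 and NRARP, which says only that these letters are not there. HES1 also held 3 matches to CACNAG, the N box to which HES repressors bind, a string found in 32.0% of promoters and whose reverse complement CTNGTG can share its last letters with GTGGGAA. A match is a description of the sequence and no evidence of binding in these cells. RefSeq promoters were at hand for 7 of the 10 members. The windows of NOTCH1, NOTCH2, JAG2 and HES6 held none of the 3 strings, and that of NOTCH3 held 1 CACNAG.

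The 8 libraries summed to between 33800389 and 40031710 counts, and replicates of every group differed by more than sampling noise. Leukocyte and endothelial markers were near 0, with summed levels of 0.0264 to 0.425 and 0.0266 to 0.449 CPM (counts per 1000000, scaled by TMM over the 8 libraries). CD3E was at 0 in every library, and CDH5 was at 0 in 7 of 8 with 0.0264 CPM in the other. Epithelial keratins were low next to VIM, a mesenchymal filament at 2634 to 6711 CPM. The 7 epithelial markers summed to 23.4 to 24.4 CPM in NCI-H1581, 15.7 to 18.1 in NCI-H1581R, 77.9 to 79.4 in NCI-H1703 and 10.0 to 12.4 in NCI-H1703R, and EPCAM was at 0.0792 to 0.703 CPM in the NCI-H1703 libraries. The 4 squamous markers summed to 7.72 to 8.34, 34.6 to 39.2, 38.3 to 38.5 and 0.978 to 1.35 CPM in the same order, and the 4 mesenchymal markers to 6104 to 6717, 4883 to 5503, 3726 to 3806 and 2666 to 3105 CPM. The squamous sum came mostly from a single marker in NCI-H1581R and from a different one in NCI-H1703. Near sums in these groups therefore do not mean a like pattern. A single keratin made most of the epithelial sum of NCI-H1703. The mesenchymal sum is mostly VIM, and other mesenchymal markers went other ways. FN1 was at 0.623 and 1.42 CPM in NCI-H1581 and 745 and 919 CPM in NCI-H1581R, and ZEB1 at 1.66 and 2.30 CPM against 18.9 and 31.7 CPM. CDH2 was at 50.2 and 48.6 CPM in NCI-H1703 and 1.08 and 1.16 CPM in NCI-H1703R. These shifts moved with the variants, and their part in the Notch results was not tested.

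**Figure D1:**
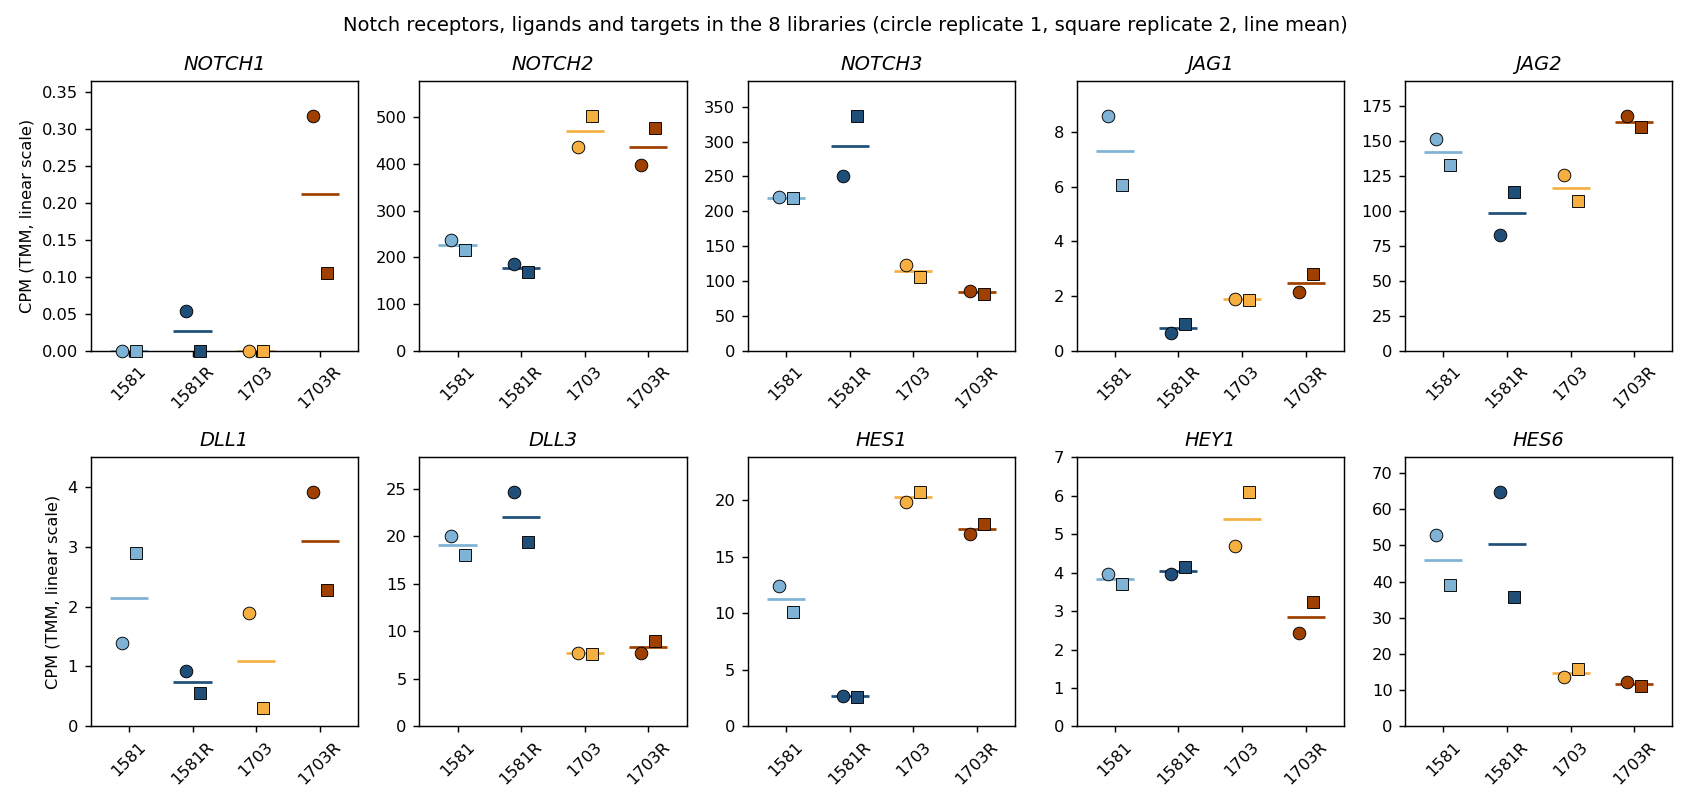
Level of each of the 10 genes in CPM (linear axis from 0, own scale per panel) in the 2 libraries of NCI-H1581, NCI-H1581R, NCI-H1703 and NCI-H1703R; circles are replicate 1, squares replicate 2 and lines the mean. JAG1 and HES1 dropped to 0.664 to 0.965 CPM and 2.62 to 2.68 CPM in NCI-H1581R, while NOTCH1 never exceeded 0.317 CPM.

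Receptor RNA in these cells was that of NOTCH2 and NOTCH3. NOTCH1 (ENSG00000148400, GRCh38 chr9:136494433-136546048), the receptor best known from T-cell leukaemia and squamous cancers, had 0 counts in both libraries of NCI-H1581 and of NCI-H1703, 2 and 0 counts in NCI-H1581R and 12 and 4 counts in NCI-H1703R. Since it entered the table of tested genes only through NCI-H1703R, its counts are given as a description, with no fold change and no test. In bulk RNA, fewer cells with a transcript and less transcript per cell cannot be told apart.

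NOTCH2 (ENSG00000134250, chr1:119911553-120100779) was the main receptor transcript of the NCI-H1703 line. It stood at 236 and 215 CPM in NCI-H1581, 187 and 169 in NCI-H1581R, 437 and 503 in NCI-H1703 and 398 and 477 in NCI-H1703R. The NCI-H1703 libraries were all above those of NCI-H1581, whereas NCI-H1703 and NCI-H1703R overlapped. By the quasi-likelihood test of edgeR, with p-values adjusted by the Benjamini-Hochberg method over all genes tested, the change in NCI-H1581R was −0.33 on the log2 scale (SE 0.16, adjusted p = 0.272) and that in NCI-H1703R was −0.07 (SE 0.13, adjusted p = 0.806). Without replicate 1 of NCI-H1581R the first became −0.40 with an adjusted p of 0.0585, and the second turned to 0.05 and 0.06 without replicate 2 of NCI-H1703 or replicate 1 of NCI-H1703R, neither past the threshold. NOTCH2 shares near-identical sequence with NOTCH2NLA, listed with 121 to 430 counts, so its reads are uncertain to that extent.

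NOTCH3 (ENSG00000074181, chr19:15159038-15200995) had the opposite order between the lines. Its level was 220 and 218 CPM in NCI-H1581, 251 and 336 in NCI-H1581R, 124 and 106 in NCI-H1703 and 85.4 and 82.0 in NCI-H1703R. Resistant and sensitive libraries did not overlap in either line, with the resistant ones higher in NCI-H1581R and lower in NCI-H1703R. In NCI-H1703R NOTCH3 fell by a log2 fold change of 0.43 (SE 0.10, adjusted p = 0.0602), a call that was lost when any of the 4 libraries was left out (adjusted p from 0.136 to 0.301). The value in NCI-H1581R was 0.43 (SE 0.20, adjusted p = 0.251), which reached 0.64 with an adjusted p of 0.00802 without replicate 1 of NCI-H1581R.

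The balance of the receptors followed from these levels. Per kilobase of canonical transcript, NOTCH3 exceeded NOTCH2 1.23-fold and 1.34-fold in the NCI-H1581 libraries and 1.77-fold and 2.63-fold in those of NCI-H1581R. In NCI-H1703 the ratio of NOTCH3 to NOTCH2 was 0.372 and 0.278, and in NCI-H1703R it was 0.283 and 0.226. Every NCI-H1581 library thus lay above 1 and every NCI-H1703 library below 1. With 2 libraries against 2 an exact permutation test cannot give a p under 0.333, so these ratios are descriptive. The receptors together made 44 to 56.2 CPM per kilobase in all 8 libraries.

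**Figure D2:**
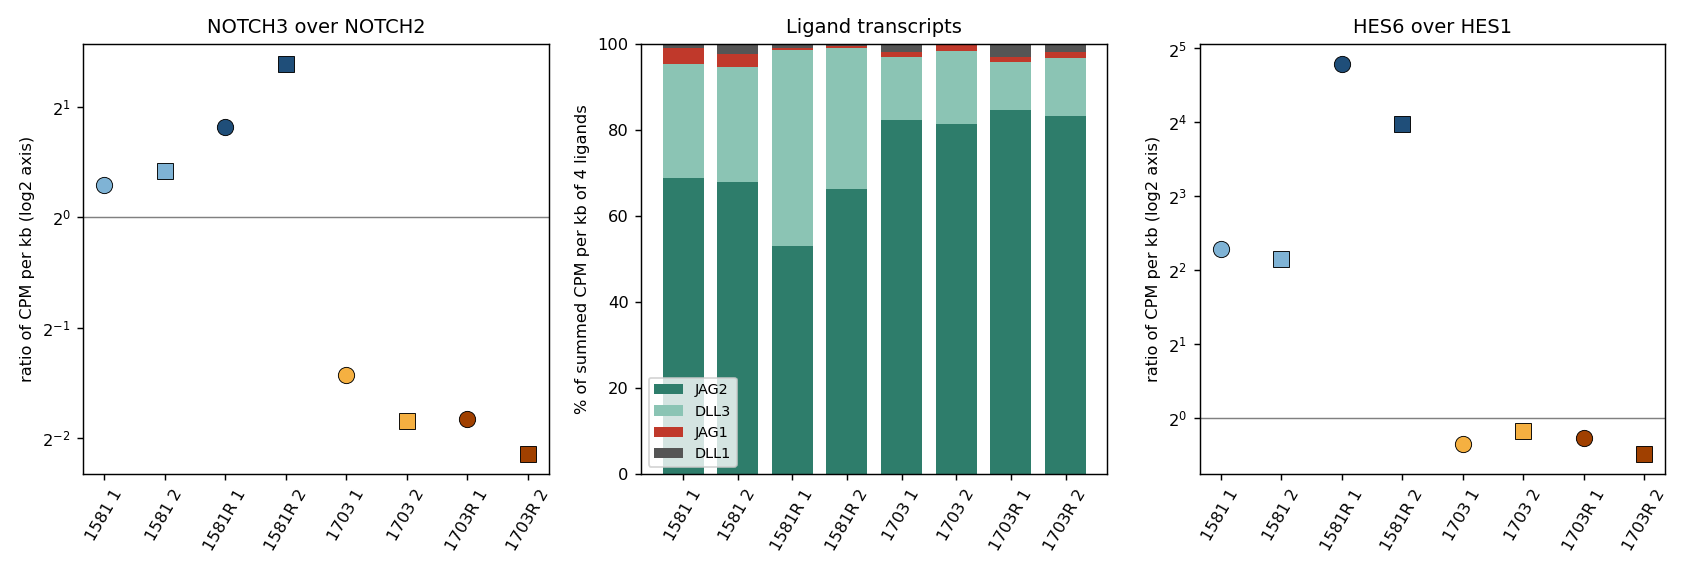
Left and right, the ratios of NOTCH3 to NOTCH2 and of HES6 to HES1 in each library, from CPM per kilobase of canonical transcript (log2 axis, grey line at a ratio of 1). Middle, the share of each ligand in the summed CPM per kilobase of the 4 ligands (bars from 0 to 100%). NOTCH3 over NOTCH2 lay between 1.23 and 2.63 in the NCI-H1581 line and between 0.226 and 0.372 in the NCI-H1703 line.

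Among the ligands the largest change was that of JAG1 in NCI-H1581R. JAG1 (ENSG00000101384, chr20:10637684-10673999), a ligand that activates Notch receptors on neighbouring cells, had 289 and 242 counts in NCI-H1581 but 25 and 38 in NCI-H1581R, which is 8.58 and 6.04 CPM against 0.664 and 0.965 CPM. The groups were far apart, and JAG1 fell by 3.14 on the log2 scale (SE 0.40, adjusted p = 0.00454), or 8.78-fold. In the NCI-H1703 line it was low from the start, at 1.89 and 1.85 CPM, and stood at 2.14 and 2.80 CPM in NCI-H1703R (log2 fold change 0.43, SE 0.31, adjusted p = 0.469). The call in NCI-H1581R was kept in every alternative run, with log2 fold changes from −3.45 to −2.88 when single libraries were left out. A lncRNA on the opposite strand covers 306 exon bases of JAG1 and is not listed in the count table.

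JAG2 (ENSG00000184916, chr14:105140982-105168824), the other Jagged ligand, was the most abundant of the 4 ligand transcripts of the set per kilobase in all 8 libraries. DLK2, a ligand gene outside the set, had a higher mean in NCI-H1581R, at 20.9 CPM per kilobase (SD 3.86) against 17.0 (SD 3.80) for JAG2. DLK2 was above JAG2 in replicate 1 of NCI-H1581R only. JAG2 measured 151 and 132 CPM in NCI-H1581, 82.5 and 114 in NCI-H1581R, 125 and 107 in NCI-H1703 and 167 and 159 in NCI-H1703R. The resistant libraries were lower than the sensitive ones in the first line and higher in the second, with no overlap in either. A lncRNA on the same strand shares 469 exon bases with JAG2 and is not listed in the count table, so reads there cannot be assigned by strand. In NCI-H1703R JAG2 rose by a log2 fold change of 0.53 (SE 0.10, adjusted p = 0.0358). That call was lost without replicate 1 of NCI-H1703 (adjusted p = 0.172), replicate 2 of NCI-H1703 (0.253) or replicate 1 of NCI-H1703R (0.108). In NCI-H1581R the value was −0.52 (SE 0.21, adjusted p = 0.186), which passed with DESeq2 (adjusted p = 0.0865) and without replicate 2 of NCI-H1581R (−0.79, adjusted p = 0.0128). Of the summed RNA per kilobase of the 4 ligands of the set, JAG2 held 68.9% and 68.0% in NCI-H1581 and 53.0% and 66.2% in NCI-H1581R. Its share was 82.2% and 81.5% in NCI-H1703 and 84.7% and 83.2% in NCI-H1703R.

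DLL1 (ENSG00000198719, chr6:170282206-170306565), an activating Delta-like ligand, was scarce and varied widely between replicates. Its counts were 47 and 116 in NCI-H1581, 35 and 22 in NCI-H1581R, 70 and 10 in NCI-H1703 and 148 and 86 in NCI-H1703R. The resistant libraries were below the sensitive ones in NCI-H1581R and above them in NCI-H1703R. Neither change passed the test, at −1.55 (SE 0.58, adjusted p = 0.161) and 1.48 (SE 0.65, adjusted p = 0.238) on the log2 scale, although with same-numbered replicates paired in a block (the replicate block) DLL1 in NCI-H1703R reached an adjusted p of 0.0142. The size of these values depended on single libraries. It was −0.90 in NCI-H1581R without replicate 2 of NCI-H1581 and −1.97 without replicate 1, and in NCI-H1703R it was 3.37 without replicate 1 of NCI-H1703 and 0.76 without replicate 2, none of them called. Exons of FAM120B on the opposite strand overlap 370 bases of DLL1, and FAM120B had up to 1927 counts, so reads of DLL1 are uncertain unless strand was used in counting.

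DLL3 (ENSG00000090932, chr19:39498895-39508481) is a ligand that mostly stays inside the cell and blocks Notch, and it is known as a marker of neuroendocrine lung tumours. It was at 20.1 and 18.1 CPM in NCI-H1581, 24.7 and 19.5 in NCI-H1581R, 7.76 and 7.63 in NCI-H1703 and 7.69 and 9.0 in NCI-H1703R. Sensitive and resistant libraries overlapped in both lines (log2 fold changes 0.22, adjusted p = 0.577, and 0.15, adjusted p = 0.653), whereas all libraries of the NCI-H1581 line lay above those of NCI-H1703. Of the neuroendocrine markers, INSM1 and GRP were at 0 in all 8 libraries. SYP and UCHL1, neuronal genes, were present at 8.01 to 102 CPM and 439 to 663 CPM, and the 10 neuroendocrine markers summed to 604 to 825 CPM over the 8 libraries, most of it UCHL1. Other markers of the list differed widely between groups. NCAM1 was at 54.6 to 81.6 CPM in the NCI-H1581 line and 0.0264 to 0.238 CPM in the NCI-H1703 line. CHGB was at 22.8 and 25.1 CPM in NCI-H1581 and 4.46 and 6.35 CPM in NCI-H1581R, whereas CHGA was at 0.208 and 0.125 CPM against 1.97 and 4.62 CPM. In NCI-H1703 CHGA was at 0.351 and 0.538 CPM, and in NCI-H1703R it was at 0 in both libraries. The part of these markers in the DLL3 levels was not tested.

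HES1 gave the clearest change among the targets. HES1 (ENSG00000114315, chr3:194136148-194138732), the classical Notch-induced repressor whose promoter is printed above, measured 12.4 and 10.1 CPM in NCI-H1581 and 2.68 and 2.62 CPM in NCI-H1581R. Its counts, 418 and 405 against 101 and 103, did not overlap, and HES1 fell by 2.07 on the log2 scale (SE 0.27, adjusted p = 0.00490), or 4.20-fold. NCI-H1703 held more HES1, at 19.8 and 20.8 CPM, and NCI-H1703R had 17.0 and 17.9 CPM (log2 fold change −0.19, SE 0.12, adjusted p = 0.400). The call in NCI-H1581R was kept under every alternative, with log2 fold changes from −2.22 to −1.94 when single libraries were left out.

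HES6 (ENSG00000144485, chr2:238238267-238240662) encodes a relative of HES1 that opposes it and favours neuronal differentiation. Its levels of 52.8 and 39.0 CPM in NCI-H1581 and 64.8 and 35.8 CPM in NCI-H1581R spread as widely within as between the variants (log2 fold change 0.14, SE 0.30, adjusted p = 0.833), and the sign turned to −0.07 and −0.33 without replicate 2 of NCI-H1581 or replicate 1 of NCI-H1581R. In NCI-H1703 it was at 13.5 and 16.0 CPM and in NCI-H1703R at 12.3 and 11.1 CPM (−0.30, SE 0.16, adjusted p = 0.314). Per kilobase, the ratio of HES6 to HES1 was 4.90 and 4.44 in NCI-H1581, 27.8 and 15.7 in NCI-H1581R, 0.784 and 0.886 in NCI-H1703 and 0.831 and 0.712 in NCI-H1703R. HES6 was thus in excess of HES1 in every library of the NCI-H1581 line and in none of the NCI-H1703 line, and the excess was largest in NCI-H1581R, where HES1 had fallen.

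HEY1 (ENSG00000164683, GRCh38 chr8:79762371-79767857), a HES-related repressor induced by Notch, was low in all groups. It was at 3.98 and 3.70 CPM in NCI-H1581, 3.96 and 4.14 in NCI-H1581R, 4.70 and 6.10 in NCI-H1703 and 2.43 and 3.25 in NCI-H1703R. HEY1 was not called in the first line (0.09 on the log2 scale, SE 0.29, adjusted p = 0.902) nor in the second, where both resistant libraries lay below the sensitive ones (−0.89, SE 0.27, adjusted p = 0.114). With the replicate block the latter passed, at an adjusted p of 0.0123.

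**Figure D3:**
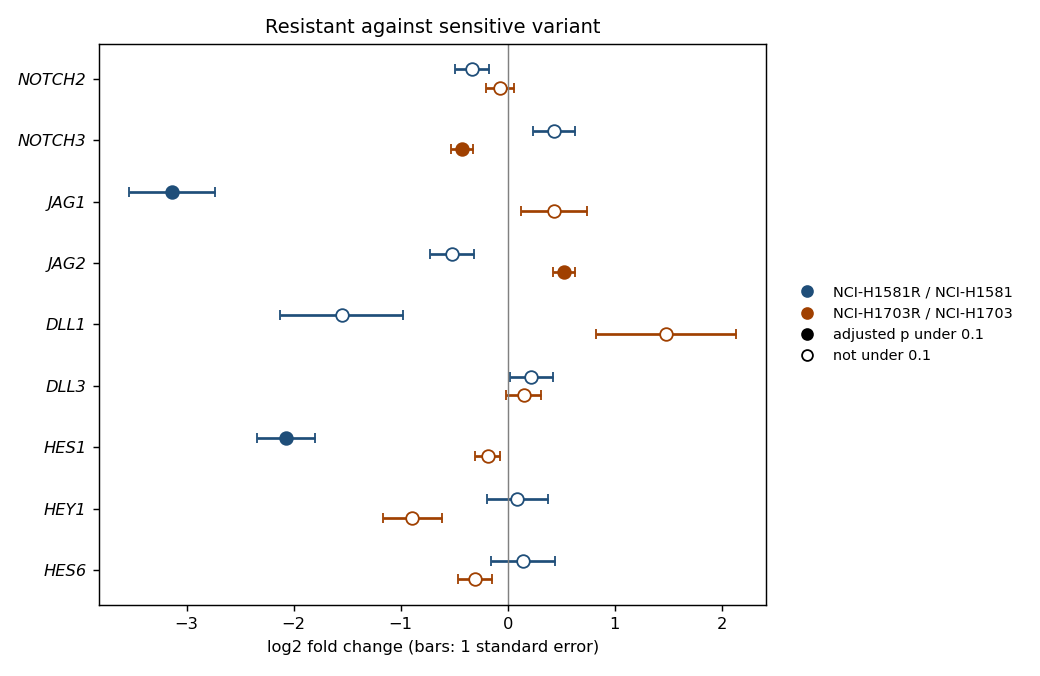
Log2 fold change of the resistant against the sensitive variant for 9 genes (x axis; bars are 1 standard error; filled points have an adjusted p under 0.1 by edgeR). NOTCH1 is left out because its counts are too low for a fold change. JAG1 and HES1 lie at −3.14 and −2.07 in NCI-H1581R. JAG2, NOTCH3, DLL1, JAG1, HEY1 and HES6 lie on opposite sides of 0 in the 2 lines, with open points in both lines for DLL1, HEY1 and HES6.

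Few genes of the set were called within a line. A gene was called when its adjusted p was under 0.1. In NCI-H1581R against NCI-H1581, 2 of 10 genes were called, JAG1 and HES1, both lower, beside 15.1% of all 18203 genes tested. In NCI-H1703R against NCI-H1703, 2 of 10 were called, NOTCH3 lower and JAG2 higher, beside 14.7% of all genes. With the replicate block the latter count was 5 of 10, beside 34.9% of all genes, as DLL1 (higher), HEY1 (lower) and NOTCH1 were added. NOTCH1 was kept by the count filter only through NCI-H1703R, so its call carries no weight. The 2 libraries of each variant did not overlap for 6 of 10 genes in the NCI-H1581 line and for 8 of 10, NOTCH1 among them, in the NCI-H1703 line, where 50.6% and 51.3% of all genes did not overlap. Over 9 genes, leaving out NOTCH1, the median log2 fold change was −0.33 in NCI-H1581R (0.04 over all genes) and −0.07 in NCI-H1703R (0 over all genes).

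The lines differed in how these genes moved. The interaction term, the change in NCI-H1703R minus that in NCI-H1581R in a fit of all 8 libraries, was called for 5 of 10 genes, beside 15.4% of all genes. JAG1 differed by 3.54 on the log2 scale (SE 0.51, adjusted p = 0.00355) and HES1 by 1.86 (SE 0.25, adjusted p = 0.00262), where both fell in NCI-H1581R and neither was called in NCI-H1703R. JAG2 differed by 1.03 (SE 0.24, adjusted p = 0.0311) and NOTCH3 by −0.88 (SE 0.22, adjusted p = 0.0419). DLL1 differed by 3.01 (SE 0.98, adjusted p = 0.0975), close to the threshold. For the other members with a fold change the difference did not pass, from −1.004 for HEY1 (SE 0.37, adjusted p = 0.136) to 0.24 for NOTCH2 (SE 0.20, adjusted p = 0.567). The calls of JAG1 and HES1 were kept when any library was left out. That of NOTCH3 was lost without either replicate of NCI-H1581 or of NCI-H1703R or without replicate 1 of NCI-H1703 (adjusted p from 0.122 to 0.173). That of JAG2 was lost without replicate 1 of NCI-H1581, replicate 2 of NCI-H1703 or replicate 1 of NCI-H1703R (0.107 to 0.132), and that of DLL1 without any library but replicate 1 of NCI-H1703 (0.101 to 0.328). The DLL1 difference was 4.92 without replicate 1 and 2.30 without replicate 2 of NCI-H1703. HES6, not called at −0.47 (adjusted p = 0.583), was called without replicate 2 of NCI-H1581R (−0.83, adjusted p = 0.0943).

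Between the sensitive lines, most of the set differed. In NCI-H1703 against NCI-H1581, 7 of 10 genes were called, beside 62.9% of all genes. NOTCH2 was 2.09-fold higher in NCI-H1703 (log2 1.06, SE 0.11, adjusted p = 0.000138) and HES1 was 1.81-fold higher (0.86, SE 0.16, adjusted p = 0.00261). Lower in NCI-H1703 were NOTCH3 by 1.91-fold (−0.93, SE 0.10, adjusted p = 0.000166), JAG1 by 3.86-fold (−1.95, SE 0.30, adjusted p = 0.00112), DLL3 by 2.47-fold and HES6 by 3.11-fold. JAG2 was 1.22-fold lower (adjusted p = 0.0597), a call that was lost without replicate 1 of NCI-H1581 (0.271) or replicate 2 of NCI-H1703 (0.267). DLL1 (−0.96, SE 0.68, adjusted p = 0.266) and HEY1 (0.49, SE 0.26, adjusted p = 0.149) did not pass, and DLL1 did so without replicate 1 of NCI-H1703 (−2.85, adjusted p = 0.0442).

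Between the resistant variants, in NCI-H1703R against NCI-H1581R, 8 of 10 genes were called, beside 52.5% of all genes. This comparison uses the same resistant libraries as those within the lines. HES1 was 6.75-fold higher in NCI-H1703R (log2 2.75, SE 0.21, adjusted p = 0.000453), NOTCH2 2.52-fold, DLL1 4.26-fold, JAG1 3.09-fold and JAG2 1.71-fold higher. NOTCH3 was 3.42-fold lower (−1.77, SE 0.20, adjusted p = 0.00165), DLL3 2.58-fold lower and HES6 4.20-fold lower. JAG1 and JAG2 were thus lower in the NCI-H1703 line among sensitive cells and higher among resistant cells. The call of JAG1 was lost without replicate 2 of NCI-H1703R (adjusted p = 0.122), and that of JAG2 without replicate 1 (0.166) or replicate 2 (0.147) of NCI-H1703R.

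**Figure D4:**
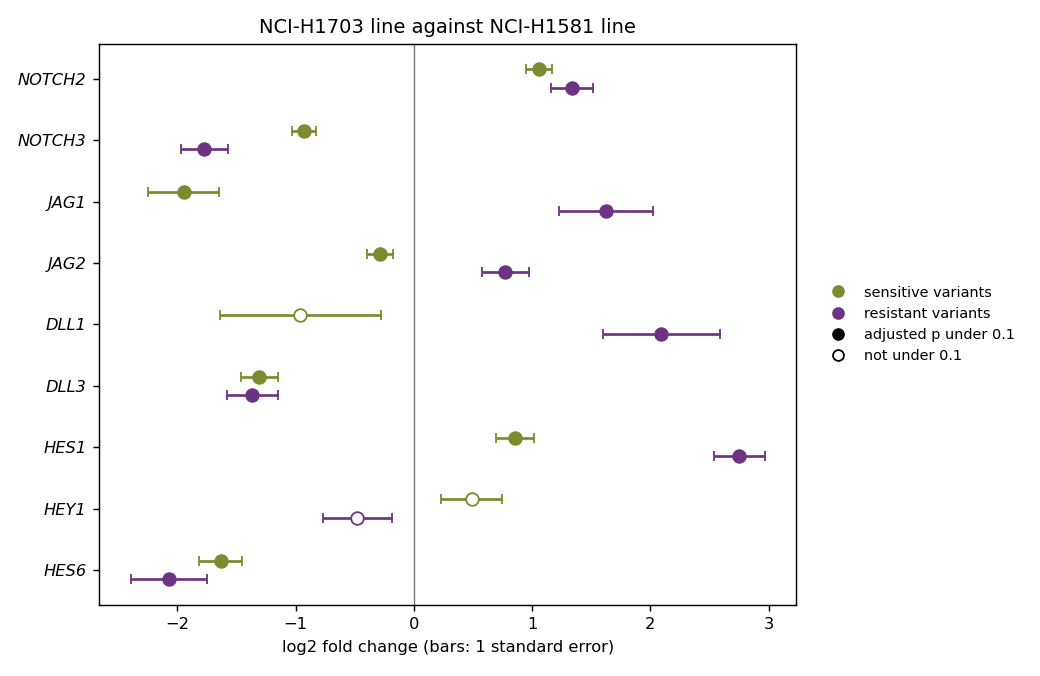
Log2 fold change of the NCI-H1703 line against the NCI-H1581 line for 9 genes, among sensitive variants (green) and among resistant variants (purple); bars are 1 standard error and filled points have an adjusted p under 0.1 by edgeR. JAG1 lies at −1.95 among sensitive and at 1.63 among resistant variants, while NOTCH2, NOTCH3, DLL3, HES1 and HES6 keep their side of 0.

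Of 54 other genes of the Notch pathway, 52 passed the filter on counts, and NOTCH4 and HES5 were at 0 in every library. In NCI-H1581R 10 of 52 were called, 5 higher and 5 lower, which is 19.2% beside 15.1% of all genes. The median log2 fold change of the list was 0.12. Of the 9 proteases and γ-secretase subunits edgeR called 0 (1 at an unadjusted p under 0.05 and 1 with DESeq2). RBPJ was not called either, at 42.1 and 48.9 CPM in NCI-H1581 and 50.3 and 46.5 CPM in NCI-H1581R. MAML3, a Mastermind-like coactivator, had 4 and 1 counts in NCI-H1581 and 334 and 528 counts in NCI-H1581R, and it rose by 7.30 on the log2 scale (SE 0.61, adjusted p = 0.000327), a size that rests on very low counts in the sensitive cells. Its relative MAML1 was not called, at 77.5 and 82.0 CPM against 66.5 and 89.4 CPM.

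The Groucho-related corepressors of the TLE family, which HES proteins recruit, moved apart in NCI-H1581R. TLE1 was at 245 and 247 CPM in NCI-H1581 and at 88.8 and 93.6 CPM in NCI-H1581R (log2 fold change −1.42, SE 0.16, adjusted p = 0.00257). TLE4 went from 46.6 and 54.4 to 8.24 and 12.3 CPM (−2.29, SE 0.25, adjusted p = 0.00236), whereas TLE3 rose from 31.6 and 30.2 to 129 and 167 CPM (2.27, SE 0.20, adjusted p = 0.000895). In NCI-H1703R edgeR called 0 of the 9 corepressors (3 at an unadjusted p under 0.05 and 1 with DESeq2). TLE4 was lower there by a similar amount on low counts, 21 and 13 against 3 and 4 (−2.31, SE 0.70, adjusted p = 0.104). Its difference between the lines was −0.05 (SE 0.56), not called, so the fall of TLE4 was not particular to NCI-H1581R. TLE1 was lower in NCI-H1703R by 0.29 (SE 0.11, adjusted p = 0.168). Among further targets, HES7, an oscillating repressor of the segmentation clock, rose in NCI-H1581R from 4.33 and 2.30 to 11.2 and 9.65 CPM (1.68, SE 0.33, adjusted p = 0.0252). DTX1, a Deltex ubiquitin ligase that acts on Notch, rose by 1.77 (SE 0.30, adjusted p = 0.0137), and LFNG, a Fringe glycosyltransferase that tunes ligand choice, fell by 0.94 (SE 0.28, adjusted p = 0.0922). With all libraries kept, edgeR did not call LFNG without a filter on low counts (adjusted p = 0.166) or with legacy quasi-dispersions (0.117). The calls of DTX1 and HES7 were lost without replicate 2 of NCI-H1581 (adjusted p = 0.153 and 0.217), and that of LFNG without either NCI-H1581 replicate (0.360 and 0.371) or replicate 1 of NCI-H1581R (0.125). The other called gene was NEURL1B, a ligase for Notch ligands, which fell by 0.71 (SE 0.20, adjusted p = 0.0836) and is named here after its values were seen. Its call was lost without replicate 1 or replicate 2 of NCI-H1581, and by edgeR without a filter on low counts (adjusted p = 0.169).

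In NCI-H1703R 7 of 52 pathway genes were called, 2 higher and 5 lower, which is 13.5% beside 14.7% of all genes, and 29 with the replicate block beside 34.9%. The median log2 fold change was −0.05. DTX4, another Deltex ligase, fell by 1.01 (SE 0.26, adjusted p = 0.0701), and CREBBP, a histone acetyltransferase of the nuclear complex, fell by 0.41 (SE 0.09, adjusted p = 0.0495). ADAM17, a protease that can cut Notch, rose by 0.38 (SE 0.09, adjusted p = 0.0570). With all libraries kept, edgeR called none of DTX4, CREBBP and ADAM17 without a filter on low counts (adjusted p from 0.120 to 0.161). The same held in the single fit of all 8 libraries (0.147 to 0.282). All 3 of these calls were lost when either NCI-H1703 replicate was left out (adjusted p from 0.258 to 0.310) and when replicate 2 of NCI-H1703R was (0.124 to 0.170), those of DTX4 and ADAM17 also without replicate 1 of NCI-H1703R (0.241 and 0.104). DLK1 (14 and 9 against 2 and 1 counts, adjusted p = 0.0693) and DTX1 (39 and 23 against 2 and 8 counts, adjusted p = 0.0804), outside the naming rule because of their low level and chosen after their values were seen, were called lower, and none of the fits with a library left out kept either call.

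A pair of target genes was called in the same direction in both lines. NRARP (ENSG00000198435), the feedback inhibitor whose promoter is printed above, stood at 30.2 and 25.2 CPM in NCI-H1581 and 13.6 and 15.8 CPM in NCI-H1581R, and at 18.1 and 17.9 CPM in NCI-H1703 and 5.60 and 5.89 CPM in NCI-H1703R. Resistant libraries were below sensitive ones in each line. NRARP fell by 0.90 in NCI-H1581R (SE 0.20, adjusted p = 0.0378) and by 1.62 in NCI-H1703R (SE 0.14, adjusted p = 0.00302) on the log2 scale, and the difference between the lines was −0.74 (SE 0.23, adjusted p = 0.0904). That difference was not called with RLE normalisation (0.113), without a filter on low counts (0.224), with the replicate block (0.129) or the block within each line (0.112), or without any library but replicate 1 of NCI-H1581R (0.103 to 0.261). In NCI-H1581R the call was lost without replicate 1 or 2 of NCI-H1581 (adjusted p = 0.323 and 0.191), while in NCI-H1703R it was kept in every alternative.

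HEY2 (ENSG00000135547), a relative of HEY1 known from heart and vessel development, was scarce, and both resistant variants lay above their sensitive ones. Its counts were 4 and 10 in NCI-H1581, 67 and 91 in NCI-H1581R, 28 and 33 in NCI-H1703 and 100 and 121 in NCI-H1703R. HEY2 rose by 3.42 in NCI-H1581R (SE 0.63, adjusted p = 0.0181) and by 1.78 in NCI-H1703R (SE 0.36, adjusted p = 0.0373). The latter call was lost without replicate 1 of NCI-H1703 (adjusted p = 0.266), replicate 2 of NCI-H1703 (0.223) or replicate 2 of NCI-H1703R (0.123). The targets thus did not share a direction. In NCI-H1581R HES1 and NRARP were lower, HES7 and HEY2 were higher, and HEY1, HES6, HES2, HES4 and HEYL were not called.

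**Figure D5:**
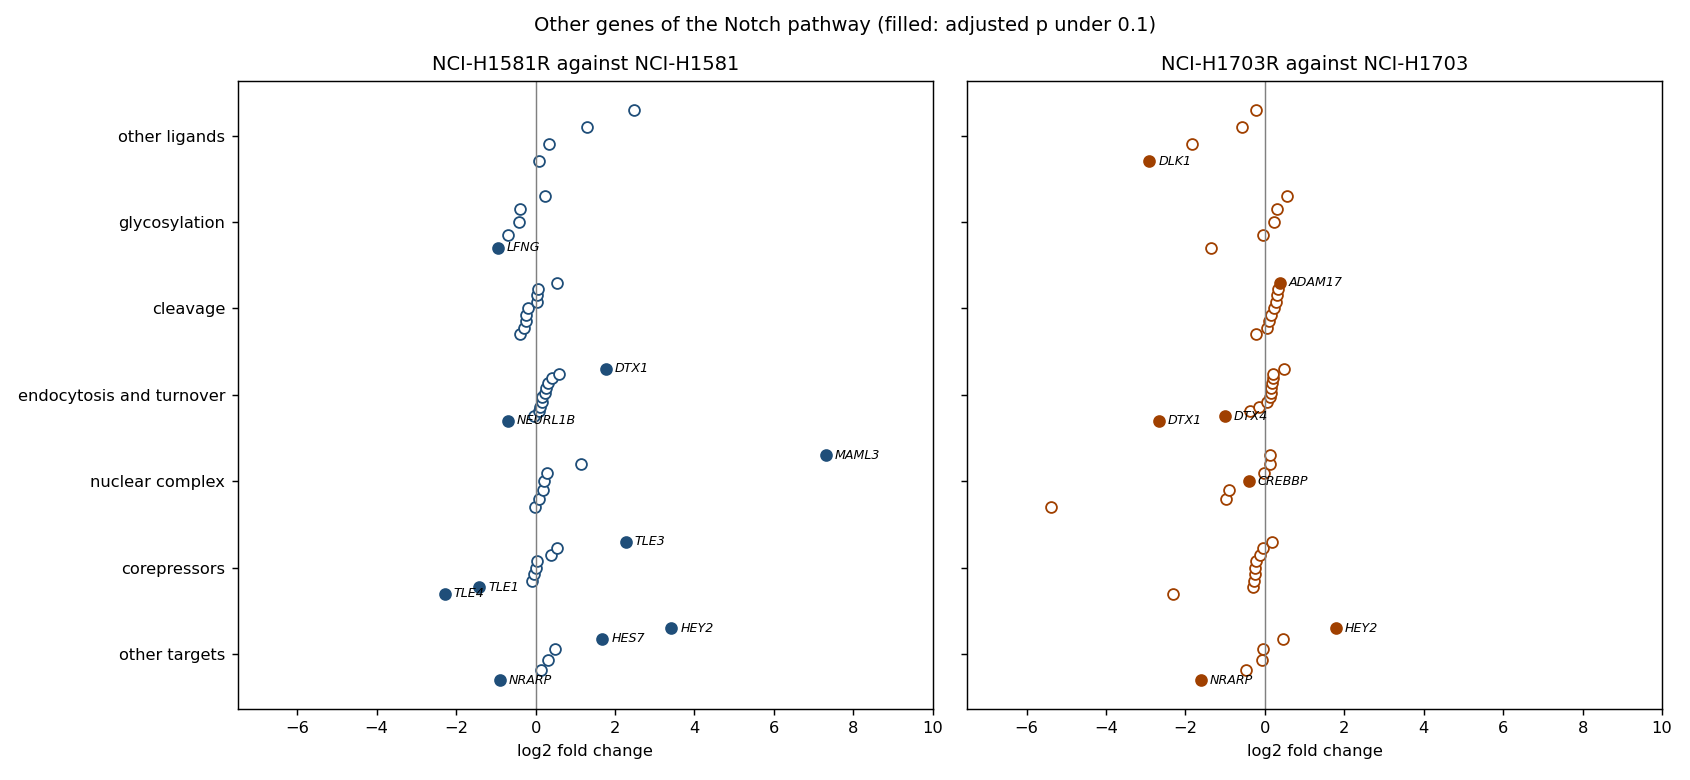
Log2 fold change of 52 other Notch pathway genes in NCI-H1581R (left) and NCI-H1703R (right), grouped by role; filled and labelled points have an adjusted p under 0.1 by edgeR. MAML3 lies at 7.30 on the left and, at 0 counts in both NCI-H1703R libraries, at an open point on the far left of the right panel that carries no usable fold change. NRARP lies below 0 and HEY2 above 0 in both panels.

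The cell lines also differed in the level of many other pathway genes. In NCI-H1703 against NCI-H1581, 36 of 52 pathway genes were called among sensitive cells (69.2% beside 62.9% of all genes), 14 higher and 22 lower. In NCI-H1703R against NCI-H1581R 32 of 52 were called (61.5% beside 52.5%), 9 higher and 23 lower. The naming rule, by size, gave lower genes only among sensitive cells. Of those higher in NCI-H1703, chosen after their values were seen, TLE2 had a log2 fold change of 1.85 (SE 0.11, adjusted p = 7.50e-06). HEY2 had one of 2.17 (SE 0.69, adjusted p = 0.0297), a call lost without replicate 2 of NCI-H1703 (0.121). DNER, a further Notch ligand, had 30 and 39 counts in NCI-H1703 and 1 and 0 in NCI-H1581 (adjusted p = 0.00405). The targets HEYL and HES4 had 847 and 866 counts and 441 and 493 counts in NCI-H1581, and 0 and 1 and 1 and 1 counts in NCI-H1703. NCI-H1703R had 0 and 1 counts of HEYL and 2 and 1 counts of HES4, beside 1217 and 1278 and 648 and 554 counts in NCI-H1581R. MAML1 was at 77.5 and 82.0 CPM in NCI-H1581 and at 2.27 and 1.82 CPM in NCI-H1703 (log2 fold change −5.28, SE 0.17, adjusted p = 3.34e-07). MAML2 was lower by 2.08 in NCI-H1703 (SE 0.40, adjusted p = 0.00322), so no Mastermind-like gene exceeded 2.27 CPM in the libraries of that line. TLE4 was at 0.568 and 0.389 CPM in NCI-H1703 (−6.70, SE 0.26, adjusted p = 8.54e-07), and TLE1 was lower by 2.84 (SE 0.10, adjusted p = 5.55e-07). DTX1 (−2.17, SE 0.44, adjusted p = 0.00415) and the non-canonical ligand gene DLK1 (−2.41, SE 0.66, adjusted p = 0.0169) were lower in NCI-H1703 as well.

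Across pathway genes the interaction was called for 12 of 52, which is 23.1% beside 15.4% of all genes. TLE3 (−2.33, SE 0.22, adjusted p = 0.000425), TLE1 (1.11, SE 0.16, adjusted p = 0.00371) and DTX1 (−4.46, SE 0.86, adjusted p = 0.0124) kept the call in every alternative, where a negative value means a lower change in NCI-H1703R. DTX1 had been called higher in NCI-H1581R and lower in NCI-H1703R. MAML3 was called as well, without a usable size, and this call was lost without replicate 1 of NCI-H1703 (adjusted p = 0.288). HES7 (−2.18, adjusted p = 0.0347), LFNG (1.47, adjusted p = 0.0248), TLE2 (−0.80, adjusted p = 0.0406) and FURIN (−0.79, adjusted p = 0.0321), the convertase that matures Notch receptors, were called too. The call of HES7 was lost without any of the 4 libraries of the NCI-H1703 line, and that of LFNG without replicate 2 of NCI-H1703 or of NCI-H1703R. TLE2 and FURIN lost it without replicate 2 of NCI-H1581 or either replicate of NCI-H1703, TLE2 also without replicate 2 and FURIN without replicate 1 of NCI-H1703R.

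The genes with a pattern most like that of HES1 were found by Pearson's r of log2(CPM + 0.5) over the 8 libraries, among 10795 genes with a mean of at least 5 CPM. They were SLFN11 (r = 0.998), LGALS1 (0.997) and SERPINH1 (0.997). SLFN11, a gene known for sensitising cells to DNA damage, was at 11.2 and 7.91 CPM in NCI-H1581, 0.0797 and 0 in NCI-H1581R, 41 and 43 in NCI-H1703 and 34.6 and 37.7 in NCI-H1703R. The 8 points are 4 groups of 2 replicates, so these values describe a shared order of the groups and no relation between genes. Closest to DLL3 were SMUG1, GPATCH3 and ABHD12 (r = 0.997 each). A high r was common, as 391 of the 10795 genes reached 0.9 or more with HES1 and 1801 with DLL3. Within the set, the closest other member was HES6 for DLL3 and DLL3 for HES6 (0.965), DLL3 for NOTCH3 (0.910), and HES1 for NOTCH2 and NOTCH2 for HES1 (0.885). It was DLL1 for JAG2 and JAG2 for DLL1 (0.701), JAG2 for JAG1 (0.650) and NOTCH3 for HEY1 (0.215). NOTCH1 is left out, because it passed the count filter only through NCI-H1703R.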

How the data were processed

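Total RNA of 8 cultures was sequenced by the authors as paired reads. The submitters' processing notes name cutadapt, Salmon and GRCh38, and transcript estimates were summed to genes. As deposited, the values are estimated counts, rounded to whole numbers and not normalised. The annotation, the tool versions and the use of strand are not given in the sources used here. All count columns were used, and groups and replicate numbers came from the labels.

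From these counts, genes whose counts added up to 10 or more over the 8 libraries were tested with edgeR 4.0.16 in R 4.3.3 (TMM, quasi-likelihood test without legacy dispersions, two-sided), on the 4 libraries of a comparison or on all 8 for the interaction, with p-values adjusted by the Benjamini-Hochberg method over all 18203 genes. This took the place of the study's DESeq2, which served as an alternative (version 1.42.0). A gene was called under 0.1. The standard error is the log2 fold change divided by the square root of F. Each comparison within a line leaves 2 residual degrees of freedom. Levels in CPM use TMM factors over all 8 libraries, and levels between genes are compared per kilobase of the Ensembl canonical transcript (GENCODE v44). A floor of 3 counts equals 0.0749 to 0.0897 CPM and covers counting error only. The models were tested on simulated data.

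The members and the pathway and marker lists were chosen with earlier results of these data known. All members are named, beside the genes most like them by Pearson r of log2(CPM + 0.5) over the 8 libraries, which are left out for NOTCH1. Named pathway genes are those called, at most the 8 with the largest absolute log2 fold change and a mean of at least 1 CPM. Same-numbered replicates were taken as paired within a line, because the study's methods describe the procedure as done again for the second replicate. Whether same-numbered cultures of a line were handled together is not stated. Over 10419 genes their deviations correlated with r = 0.259 in the NCI-H1581 line and r = 0.562 in the NCI-H1703 line, but with 0.0433 and −0.561 between the lines. Alternatives were DESeq2, RLE normalisation, other count filters, the replicate block, a single fit, a threshold of 0.05, legacy quasi-dispersions and leaving out each library. The protein blots and copy number arrays were not analysed here. The level of 1 marker gene is not reported here.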

Additional observations from a re-analysis of the deposited data

Results flagged for a closer look

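For 5 of the 10 genes the change with resistance differed between the cell lines by the interaction test of edgeR, beside 15.4% of all genes. The p-values were adjusted over all genes. The values are the log2 change in NCI-H1703R against NCI-H1703 minus that in NCI-H1581R against NCI-H1581. JAG1 differed by 3.54 (adjusted p = 0.00355), as it fell by 3.14 in NCI-H1581R and changed by 0.43, without a call, in NCI-H1703R. HES1 differed by 1.86 (adjusted p = 0.00262), with −2.07 in NCI-H1581R and −0.19 in NCI-H1703R. JAG2 differed by 1.03 (adjusted p = 0.0311), with −0.52 in NCI-H1581R, not called, and 0.53 in NCI-H1703R. NOTCH3 differed by −0.88 (adjusted p = 0.0419), with 0.43 in NCI-H1581R, not called, and −0.43 in NCI-H1703R. DLL1 differed by 3.01 (adjusted p = 0.0975), with −1.55 and 1.48, neither called within its line. For all 5 both libraries of each resistant variant lay outside the range of its sensitive variant, and for JAG1, JAG2, DLL1 and NOTCH3 on opposite sides in the 2 lines. Of all genes, 50.6% in the NCI-H1581 line and 51.3% in the NCI-H1703 line did not overlap between the variants. The 5 genes were picked by a test on the same libraries, so their separation is no further support.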

How the results depend on the processing

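No direction of a gene turned in 360 comparisons of single gene values with alternatives other than leaving out a library; 339 kept their side of the threshold, 12 lost and 9 gained a call. With a library left out, its group's other library is assumed to vary like the rest, and 177 of 216 values were kept, 27 lost and 5 gained a call, and 7 changed sign without a call. These 7 concerned HES6 in NCI-H1581R (−0.33 to 0.49), NOTCH2 in NCI-H1703R (−0.21 to 0.0603) and, for the interaction, DLL3 (−0.26 to 0.0854) and HES6 (−0.83 to 0.0212). The cause was not tested.

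Members called in NCI-H1703R numbered 2, but 5 with the replicate block, 0 without a filter on low counts, 1 in the single fit of all libraries and 1 at the threshold of 0.05, and 0 to 1 with a library left out. Pathway genes called there numbered 7, but 29 with the replicate block, 2 without a filter, 3 in the single fit, 3 at 0.05 and 1 to 3 with a library left out. In NCI-H1581R the single fit called 18 pathway genes in place of 10, and leaving out a library gave 2 to 4 members and 5 to 22 pathway genes. For the interaction the latter gave 2 to 5 members and 4 to 20 pathway genes, and between the resistant variants 20 to 35 pathway genes. Of all genes, 34.9% were called in NCI-H1703R with the replicate block, 3.51% without a filter and 9.50% in the single fit, and in NCI-H1581R 24.9% in the single fit. The share of all genes called also changed with the library left out, in each of these comparisons. The ranges given for leaving out a library therefore do not set the Notch genes apart. The replicate block changed the calls of DLL1, HEY1 and NOTCH1, which passed the filter only through that variant, in NCI-H1703R and, for the interaction, of DLL1 (adjusted p = 0.123), with 4 members called. The block within each line, which gave 6, added HEY1 (adjusted p = 0.0917). The block changed no other member's call. Legacy quasi-dispersions, chosen after seeing the data, lost only the interaction of DLL1 among members (adjusted p = 0.155). Depth limits NOTCH1, which had 12 counts at most.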

Other observations

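Among other Notch targets, HES2 was at 4.38 to 6.14 CPM over the 8 libraries and was called in 0 of 5 comparisons by edgeR, with 0 at an unadjusted p under 0.05 and 0 by DESeq2. The promoters of HES4 and HEYL, the targets close to absent from NCI-H1703, each held 1 GTGGGAA in the 250 bases before the start, as did HES1 and HEY2, while those of HES2, HES7 and NRARP held none. The TGGGAA match of HES4 began 76 bases before the start and those of HEYL 178 and 99 bases before it.

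Of the epithelial markers, KRT5 and KRT7 followed the replicate number rather than the variant. KRT5 had 1, 0, 1 and 0 counts in replicate 1 and 47, 41, 35 and 38 counts in replicate 2 of NCI-H1581, NCI-H1581R, NCI-H1703 and NCI-H1703R. KRT7 had 21, 22, 83 and 61 counts in replicate 1 and 169, 157, 169 and 176 in replicate 2, in the same order. None of the 10 members was higher and none was lower in replicate 2 of all 4 groups. Of the 54 other pathway genes, 4 were higher there (ADAM10, NCSTN, SNW1 and HEY2) and 3 were lower (TLE2, RFNG and HES7). Over all 31 marker genes the counts were 4 and 3. The share over all genes was not computed, so these counts are descriptive and set none of the lists apart.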
